A study of Danio rerio with 52 samples.

Results

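Hair cells and mantle cells are the sensory and the outermost cells of the neuromast, the sense organ of the zebrafish lateral line, and the expression profiles of sorted GFP+ hair cells were compared here with those of sorted mCherry+ mantle cells, both from untreated larvae. The comparison used the 2 arrays labelled as untreated GFP+ hair cells and the 5 labelled as untreated mCherry+ mantle cells, which are 7 of the 52 arrays of the series, and it covered all 19260 named genes. The GFP+ hair cells came from alpl:mCherry;pou4f3:GFP larvae, in which GFP marks hair cells and mCherry marks mantle cells. The labels give no line for the mCherry+ cells of their own. The alpl:mCherry transgene is part of the line of the hair cells and of that of the mCherry+/GFP+ mantle cells described below. All larvae were 4 days old and untreated, about 50 skins were dissociated with trypsin for a sample, and cells were sorted by light scatter and fluorescence. The other untreated arrays, 4 of mCherry+/GFP+ mantle cells (double-positive cells below; their line was alpl:mCherry;Et20, whose GFP marks most mantle cells) and 6 of non-fluorescent (NF) cells, gave an estimate of the spread and a point of reference. Cells from several sorts were pooled for each hair cell and each double-positive sample, and a few samples that failed to cluster were left out by the authors.

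A hair cell carries a bundle of actin-filled stereocilia beside a true cilium, the kinocilium. Deflection of the bundle opens mechanotransduction channels that are gated through tip links of cadherin 23 and protocadherin 15, and the resulting depolarization admits calcium through L-type channels at ribbon synapses, where otoferlin drives the release of glutamate. Mantle cells ring the neuromast as non-sensory cells and are regarded as a source of progenitors when hair cells are lost, and Notch, Wnt, Fgf and Bmp signals are known to govern that choice.

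Values are the deposited array levels on a log2 scale, a difference is hair minus mCherry+, and its standard error comes from a linear model (limma) over the 17 untreated arrays. A gene was called when its p, adjusted by Benjamini and Hochberg over all 19260 genes, was below 0.05. By that rule 6864 genes (35.6%) differed, of which 3395 (17.6%) were higher and 3469 (18.0%) lower in hair cells, and the median difference of all genes was -0.03. The limit of a fold of 4 was passed by 1172 of the higher and 1029 of the lower genes, and that of a fold of 16 by 271 and 240. Leaving out genes whose mean over the 17 untreated arrays was below that of the median gene reduced the tested set and left 4434 calls. Most of these arrays are not of hair cells, so this setting can also drop genes that are bright in hair cells alone. The hair arrays and the mCherry+ arrays did not overlap in 4898 genes (25.4%) with hair higher and in 5284 (27.4%) with hair lower. Since so many genes were called, a share of called members near 18% in either direction is no more than the background of this comparison. With 2 hair arrays, the spread within hair cells is assumed to be like that of the other populations.

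**Figure D1:**
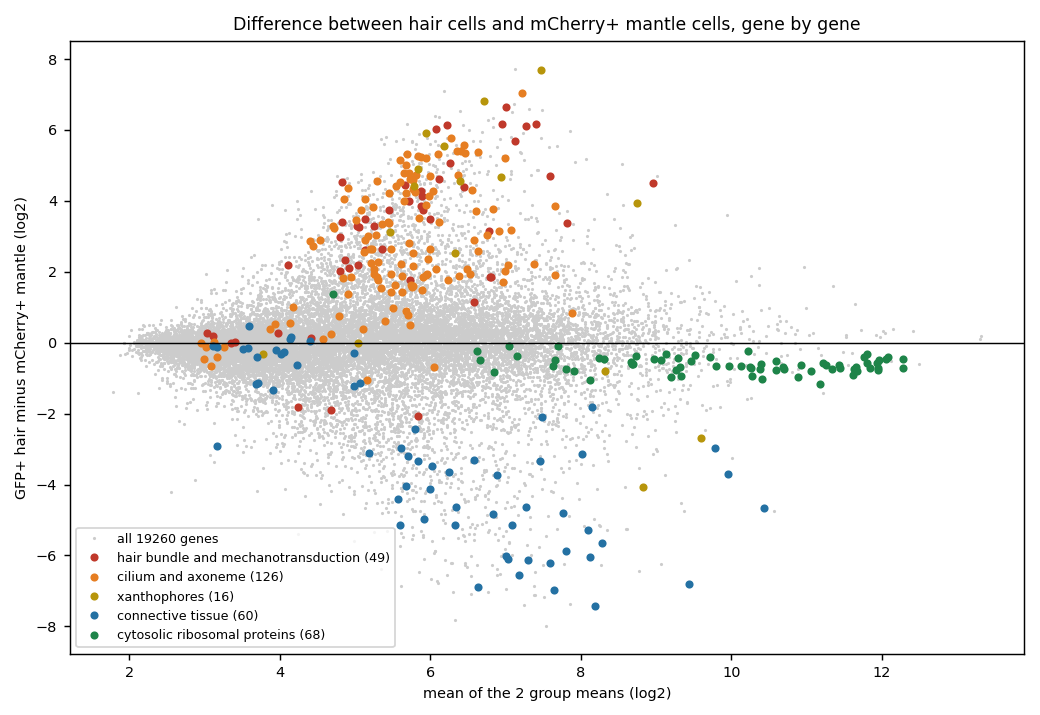
Difference between GFP+ hair cells and mCherry+ mantle cells (vertical axis, log2) against the mean of both group means (horizontal axis, log2), with 1 point for each of 19260 genes and the members of 5 lists in colour. The genes of the hair bundle, the cilium and xanthophores lie mostly above the line at 0. Connective tissue genes lie mostly below it, between -7.43 and 0.48, and so do ribosomal protein genes, between -1.17 and 1.37 with a median of -0.63.

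The genes of the reporters were looked at first. Hair cells were sorted on GFP from the pou4f3:GFP transgene, so their pou4f3 level is not an independent check of identity. The level of pou4f3, a POU-domain transcription factor required for hair cell survival and the source of the GFP promoter, was 9.66 and 9.63 in the hair arrays, against 4.03, 4.35, 4.42, 3.57 and 4.21 in the mCherry+ arrays. The groups were far apart, by 5.53 ± 0.22 (SE, adjusted p = 9.01e-13). The gene alpl, an alkaline phosphatase whose name the mCherry reporter carries, measured 6.88 and 6.53 in hair cells, against 6.51, 6.51, 6.32, 6.97 and 7.08 in mCherry+ cells. These ranges overlap, and the difference of 0.03 ± 0.23 was not called (adjusted p = 0.949). NF cells had 6.07 to 6.56 for alpl and double-positive cells 7.17 to 7.86, so among these sorts the alpl transcript was not at its highest in the mCherry+ arrays. The genes TSPAN1, anos1a and fat1b of the support and mantle list, described below, were higher in every mCherry+ array than in any hair or NF array, but they are 3 genes of a list of 43 in which 12 were lower, 8 higher and 23 not called in hair cells, and TSPAN1 was named after its values were seen.

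Of the 23 measured transcription factors of hair cell development, 14 were higher (60.9%), 2 lower and 7 not called, with a median difference of 1.37. Atonal homologue 1a (atoh1a), the factor that starts hair cell differentiation, measured 7.59 and 6.76 in hair cells and 4.1, 4.63, 4.84, 4.22 and 4.55 in mCherry+ cells. All hair values lay above all mCherry+ values, and the difference of 2.71 ± 0.27 was called (adjusted p = 1.47e-07). The largest change in the list was that of gfi1aa, a zinc-finger repressor that acts after atoh1a, with 10.05 and 9.96 in hair cells and 3.25, 3.42, 4.17, 3.73 and 3.73 in mCherry+ cells. Its duplicate gfi1ab differed by 4.18 ± 0.35, the homeobox genes barhl1a and barhl1b by 5.01 ± 0.27 and 3.43 ± 0.23, and rbm24a, an RNA-binding protein with a role in splicing, by 5.09 ± 0.38. The zinc-finger gene insm1a was higher by 1.37 and the LIM homeobox gene isl1a by 2.15. The placodal co-activator eya1 was higher in hair cells than in mCherry+ cells by 1.43 ± 0.28, at 10.37 and 10.47 against 8.90, 8.89, 9.10, 8.70 and 9.38, and six2a was lower, at -1.37 ± 0.31, while sox4a, at 6.97 and 7.07 against 7.42, 7.35, 8.04, 7.02 and 7.61, was not called. The other lower member was tbx2b, a T-box gene, with 4.41 and 4.37 in hair cells and 6.65, 6.89, 6.29, 6.78 and 7.06 in mCherry+ cells. The double-positive cells had 3.83 to 4.86 for tbx2b, a range that includes both hair values. Without hair replicate 2 the call of six2a was lost (adjusted p = 0.0724) and 1 lower member was left.

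Genes of the hair bundle and of mechanotransduction were higher in hair cells in 40 of 49 cases (81.6%), with 3 lower and 6 not called, and a median difference of 3.29. Myosin 7aa (myo7aa), a motor of the stereocilia, measured 9.92 and 10.02 in hair cells and 3.89, 4.4, 4.36, 4.27 and 4.42 in mCherry+ cells, a difference of 5.70 ± 0.20. Of the tip-link cadherins, cdh23 measured 7.76 and 7.69 in hair cells and 3.58, 3.78, 3.72, 3.83 and 3.66 in mCherry+ cells. Its partner pcdh15a measured 8.73 and 8.83 in hair cells and 3.95, 3.97, 3.29, 3.71 and 3.72 in mCherry+ cells. Both genes stood at low and similar values in all mCherry+ arrays and were higher in both hair arrays, by 4.01 ± 0.17 and 5.06 ± 0.29. The transduction channel genes gave unlike calls. The level of tmc2a was 5.22 and 5.18 in hair cells and 3.07, 2.98, 2.99, 2.98 and 3.09 in mCherry+ cells, a difference of 2.18 ± 0.15, whereas tmc1 had 3.18 and 3.53 in hair cells and 3.1, 3.58, 3.47, 3.09 and 3.53 in mCherry+ cells. The tmc1 ranges overlap and the gene was not called (adjusted p = 0.996). All its values lie below the median gene of the arrays (4.75 to 4.76 in hair, 4.67 to 4.71 in mCherry+ arrays). Whether tmc1 was detected in either sort is not known, and the difference between both genes was not tested. The gene lhfpl5b, a tetraspan partner of the channel, was higher by 6.17 ± 0.38. No call was made for myo7ab, the duplicate of myo7aa, at 4.09 and 4.13 in hair cells and 3.99, 3.98, 3.89, 3.47 and 3.79 in mCherry+ cells (adjusted p = 0.274).

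Among the structural genes of the bundle, espnla, an espin-like actin bundler, was higher by 6.15 ± 0.19, triobpa, whose mammalian homologue bundles the actin of stereocilia rootlets, by 6.11 ± 0.33, and baiap2l2b, a membrane-bending protein, by 6.16 ± 0.24. The calcium pump gene atp2b2, which clears calcium from stereocilia, had one of the largest differences of all genes, 6.65 ± 0.19, with 10.33 and 10.32 in hair cells and 3.84, 3.41, 3.64, 3.80 and 3.68 in mCherry+ cells. The minus-end directed motor gene myo6b was higher by 3.37 ± 0.25, at 9.43 and 9.57 in hair cells and 6.05, 6.03, 5.76, 6.25 and 6.58 in mCherry+ cells. The genes of the ankle-link and Usher complexes adgrv1 and ush1c were higher by 3.28 ± 0.16 and 3.41 ± 0.16, and ptprq and loxhd1b, both genes needed for hearing in mammals, by 4.15 ± 0.18 and 4.38 ± 0.27. The 3 lower members were tmem132e, elmod3 and cib3, at -2.06, -1.90 and -1.81. The double-positive arrays had 8.39 to 8.86 for tmem132e, the highest of the hair, mCherry+ and double-positive arrays, against 4.79 and 4.80 in hair cells.

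**Figure D2:**
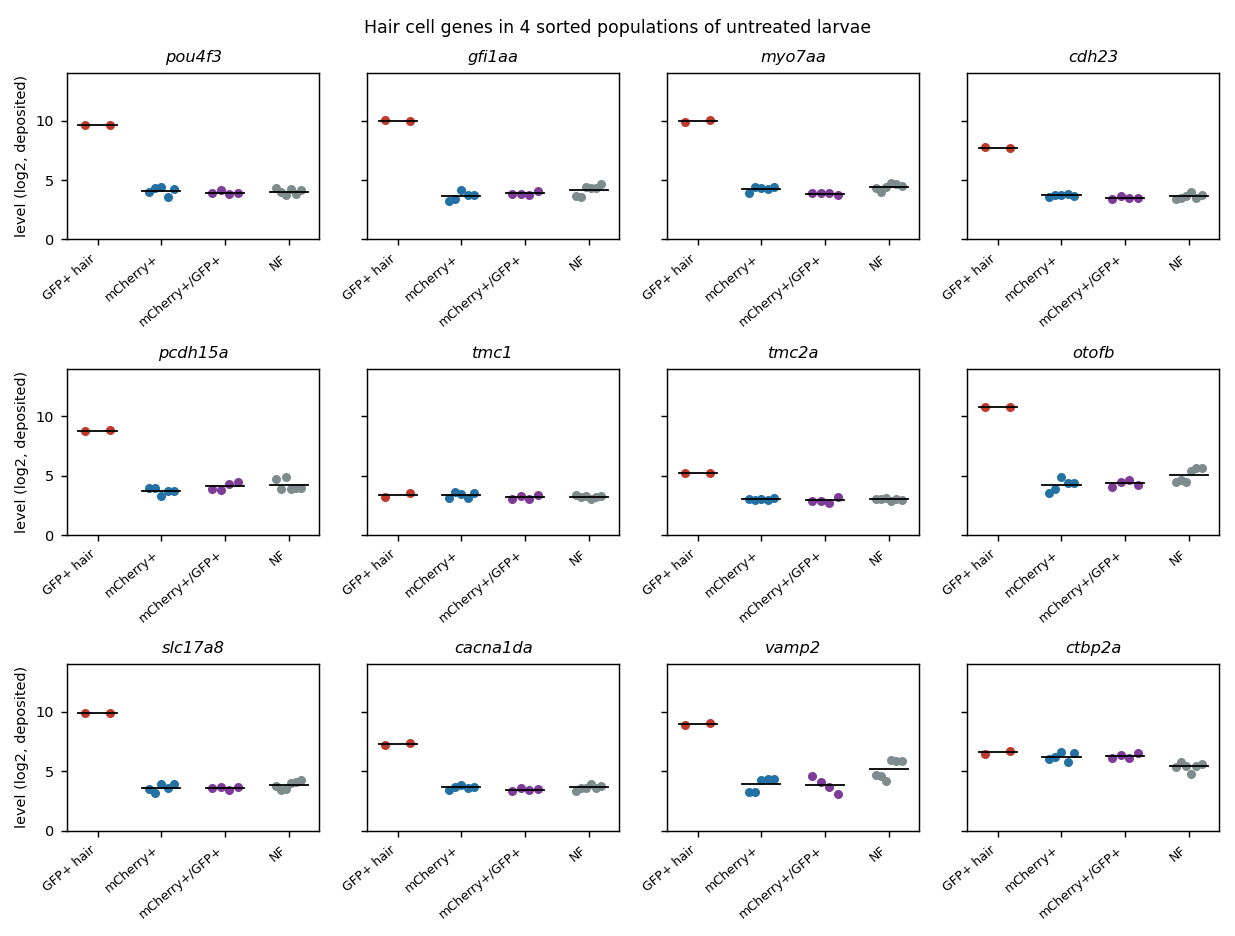
Levels (vertical axis, log2) of 12 genes of hair cell identity, transduction and synapse in each array of the hair, mCherry+, double-positive (mCherry+/GFP+) and NF sorts, with a bar at the group mean. In 10 panels both hair points lie above all other points, and in the panels of tmc1 and ctbp2a the hair points are level with or close to the rest.

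Of 51 genes of the ribbon synapse and of exocytosis, 19 were higher (37.3%), 7 lower and 25 not called, and the median difference was 0.11. The largest were in genes known for their role at hair cell synapses. Both otoferlin genes, the calcium sensors of release, were higher, with otofb at 10.74 and 10.79 in hair cells and 3.5, 3.86, 4.89, 4.37 and 4.38 in mCherry+ cells, and otofa at 8.27 and 8.34 in hair cells and 3.41, 3.67, 4.06, 4.31 and 3.77 in mCherry+ cells. The vesicular glutamate transporter gene slc17a8 measured 9.91 and 9.92 in hair cells and 3.54, 3.14, 3.91, 3.62 and 3.91 in mCherry+ cells, a difference of 6.29 ± 0.24. Of the duplicated pore genes of the L-type channel, cacna1da measured 7.24 and 7.41 in hair cells and 3.39, 3.70, 3.86, 3.62 and 3.67 in mCherry+ cells, and cacna1db 3.12 and 3.63 in hair cells and 3.60, 3.84, 3.99, 3.31 and 3.29 in mCherry+ cells. One duplicate thus differed by 3.68 ± 0.17 and the other was not called (adjusted p = 0.507). The vesicle SNARE gene vamp2 was higher by 5.06 ± 0.49 and pcloa, a scaffold of the active zone, by 2.36 ± 0.17. The gene ctbp2a, from which the ribbon protein is made by one of its transcripts, measured 6.47 and 6.72 in hair cells and 6.01, 6.19, 6.62, 5.75 and 6.53 in mCherry+ cells. Its ranges overlap and it was not called (adjusted p = 0.289). Without hair replicate 1, 4 members instead of 7 were lower. The lower members include the synaptotagmin gene syt1a (-1.22 ± 0.26), rab3da (-2.09 ± 0.32), erc2 (-1.63 ± 0.26) and the calcium channel subunit gene cacna2d1a (-2.70 ± 0.30).

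Calcium buffers and ion channels were near the background as lists, with 6 of 34 buffers (17.6%) and 14 of 54 channels (25.9%) higher and 5 and 7 lower, the 5 becoming 1 without hair replicate 1 and likewise without hair replicate 2. Among the buffers, s100s and s100t were higher by 5.30 ± 0.31 and 4.88 ± 0.68, and cabp2b, a calcium-binding regulator of the synaptic calcium channel, by 5.14 ± 0.55. The parvalbumin gene pvalb8 measured 11.76 and 11.73 in hair cells and 7.22, 7.14, 8.25, 8.77 and 9.30 in mCherry+ cells, a difference of 3.61 ± 0.74, but the double-positive arrays had 8.85 to 11.17 and the hair versus double-positive difference of 1.47 was not called (adjusted p = 0.152). Among the channels, the potassium channel genes kcnd3, kcnma1b and kcnn2, the last a calcium-activated channel, were higher by 3.54, 3.24 and 2.98. The calcium channel genes cacna1c and cacna1g were lower, at -1.98 ± 0.19 and -2.46 ± 0.36, as was kcnip1b at -3.02 ± 0.47. The sodium pump gene atp1a3b measured 9.48 and 9.52 in hair cells and 3.36, 2.90, 3.75, 3.29 and 3.56 in mCherry+ cells.

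The cilium and axoneme list had the highest share of higher members, with 109 of 126 (86.5%) higher, 2 lower and 15 not called, and a median of 2.65. The factor foxj1a, the regulator of motile cilium genes, measured 9.28 and 9.21 in hair cells and 3.26, 3.80, 4.13, 3.80 and 3.34 in mCherry+ cells, a difference of 5.58 ± 0.37. The regulatory factor X genes rfx2 and rfx3 were higher by 2.81 ± 0.25 and 1.84 ± 0.31, while rfx4, at 3.13 and 3.15 in hair cells and 2.84, 3.04, 3.21, 3.13 and 3.37 in mCherry+ cells, was not called. Genes of the motile axoneme were among the largest changes. The tektin gene tekt3, a filament of the doublet microtubules, measured 10.73 and 10.74 in hair cells and 3.31, 3.19, 4.02, 4.02 and 3.99 in mCherry+ cells, tekt1 was higher by 5.42 ± 0.24, and the outer-arm dynein gene dnah5 by 5.78 ± 0.32. The intraflagellar transport genes ift88 and ift172, needed to build any cilium, were higher by 2.60 ± 0.23 and 2.07 ± 0.26, with ift88 at 7.94 and 7.93 in hair cells and 5.31, 4.84, 5.53, 5.28 and 5.71 in mCherry+ cells. The 2 lower members were dynein genes, dnah9 at -1.04 and dnai1.1 at -0.67. The call of dnah9 was lost without hair replicate 1 (adjusted p = 0.101) or 2 (adjusted p = 0.136), which left 1 lower member, and its difference was -0.37 (adjusted p = 0.209) when its probe sets were averaged.

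The 12 genes with the largest positive differences, taken among genes called on 3 scalings with arrays that do not overlap, are led by slc22a7a, an organic anion transporter gene, at 10.89 and 11.08 in hair cells and 3.16, 3.29, 3.27, 3.48 and 3.09 in mCherry+ cells. Its difference of 7.73 ± 0.29 was followed by gch2 (7.69), dusp19a (7.09), tekt3 (7.03), slc2a15a (6.82), anxa5a (6.74), atp2b2 (6.65), erich3 (6.58), otofb (6.56), kifl (6.52), dnajc5b (6.50) and GPX2 (6.40). Of these, tekt3, atp2b2 and otofb belong to the cilium, bundle and synapse described above. The gene anxa5a encodes an annexin, a calcium-dependent membrane-binding protein, and measured 10.49 and 10.47 in hair cells and 3.23, 2.87, 4.08, 4.19 and 4.33 in mCherry+ cells. The gene dnajc5b belongs to the cysteine string proteins, chaperones of synaptic vesicles, and GPX2 is a glutathione peroxidase. The genes gch2 and slc2a15a are pigment cell genes.

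Many xanthophore and melanophore genes were high in the hair cell arrays. Of 16 xanthophore genes 11 were higher (68.8%), 3 lower and 2 not called (median 4.19), of 25 melanophore genes 16 were higher (64.0%), 3 lower (1 and 0 without hair replicates 1 and 2) and 6 not called (median 1.97), and of 24 iridophore genes 9 were higher and 5 lower. The pteridine synthesis gene gch2 measured 11.25 and 11.36 in hair cells and 3.47, 3.39, 4.09, 3.28 and 3.86 in mCherry+ cells. The sugar transporter family gene slc2a15a, listed with xanthophores, measured 10.15 and 10.09 in hair cells and 3.22, 3.35, 3.42, 3.43 and 3.08 in mCherry+ cells. For neither gene did any double-positive or NF array come near the hair values, the NF arrays having 2.99 to 3.61 for gch2 and 2.98 to 3.85 for slc2a15a. The receptor genes kita, csf1ra and ednrba (the last from the iridophore list), used by pigment cells and their precursors, were higher by 5.32 ± 0.38, 4.56 ± 0.45 and 5.75 ± 0.23, the xanthine dehydrogenase gene xdh by 4.43 ± 0.22 and pax7a, a factor of the xanthophore lineage, by 3.11 ± 0.31. Other members went the other way, with lowest differences of -4.06 in the xanthophore list and -4.84 in the iridophore list. In the iridophore list 37.5% were higher and 20.8% lower, with a median of 0.08. Of the genes that define melanophores, mitfa and tyr were higher by 1.99 ± 0.19 and 2.74 ± 0.24, but dct (3.58 and 3.88 in hair cells and 3.82, 4.26, 3.98, 3.70 and 3.79 in mCherry+ cells), tyrp1b, pmela and oca2 were not called (-0.35, -0.59 and -0.34 for the last 3). The mean level of the xanthophore list was 8.13 to 8.17 in the hair arrays, against 5.23 to 5.31 in the mCherry+ arrays, and that of the melanophore list 5.78 to 5.79 against 4.01 to 4.09. The part of these cells in the other differences was not tested, and in sorted bulk samples fewer cells of a type and less RNA per cell cannot be told apart.

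Lists of other cell types gave mixed results, with single members far apart in some of them. The ammonium channel gene rhag, listed with red blood cells, measured 10.13 and 10.24 in hair cells and 3.83, 3.95, 4.42, 4.79 and 4.31 in mCherry+ cells, whereas the NF arrays had 9.10 to 10.33. The remaining 17 red blood cell genes, globins included, were not called, the globin gene hbae1.1 having 4.71 and 4.77 in hair cells and 5.38, 5.06, 7.80, 7.70 and 7.18 in mCherry+ cells. Leukocyte genes had 0 of 40 higher and 7 lower (17.5%), near the 18.0% of all genes that were lower. Fewer were lower when either hair array was left out. Of 57 keratinocyte genes 21 were higher (36.8%), 11 lower and 25 not called. The higher ones include icn2, a gene of the outer skin layer, at 8.22 and 8.59 in hair cells and 4.27, 4.92, 4.45, 5.08 and 3.94 in mCherry+ cells, with krt17 higher by 3.72 ± 0.47 and scel, a gene of cornified envelopes in mammals, by 3.36 ± 0.45. The lower ones include col17a1a, which encodes a hemidesmosome collagen of basal keratinocytes, at 3.57 and 3.44 in hair cells and 7.28, 7.16, 8.85, 5.28 and 7.09 in mCherry+ cells, and krt91 and the claudin gene cldn1 at -3.25 ± 0.48 and -3.55 ± 0.66. In col17a1a and cldn1 replicate 3 of the mCherry+ arrays was the highest and replicate 4 the lowest. The mean level of the keratinocyte list was 6.52 to 6.55 in hair cells and 5.52 to 6.29 in mCherry+ cells. It was 6.80 to 7.23 in double-positive cells and 7.32 to 8.08 in NF cells. Against double-positive cells, 11 of the 57 were higher in hair cells and 16 lower (median -0.15), with all genes at 17.2% and 18.2%. Double-positive cells exceeded mCherry+ cells in 31 and fell below them in 0, with all genes at 12.6% and 12.8%.

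**Figure D3:**
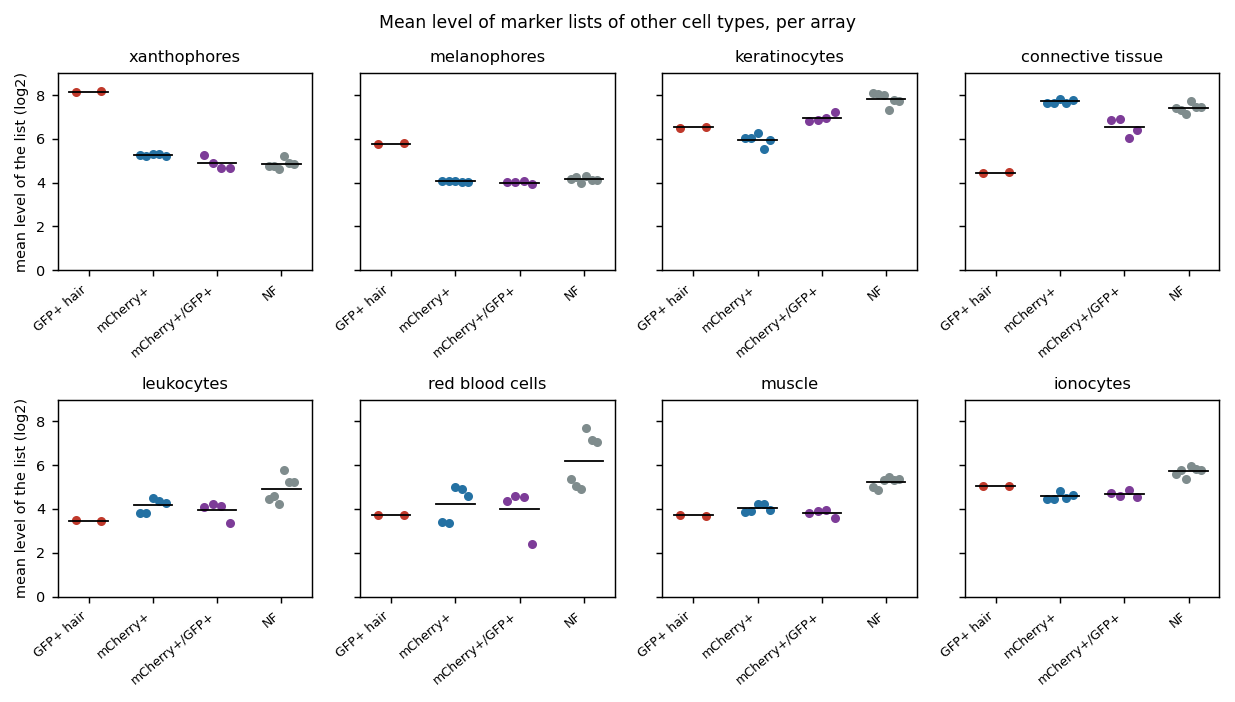
Mean log2 level (vertical axis) of the measured genes of 8 marker lists in each array of the hair, mCherry+, double-positive (mCherry+/GFP+) and NF sorts, with a bar at the group mean. The hair points are the highest for xanthophores and melanophores, and for connective tissue they are the lowest. For connective tissue the mCherry+ points lie between 7.63 and 7.83 and the NF points between 7.15 and 7.71. Only NF replicate 4 (7.71) reaches the mCherry+ points.

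Connective tissue genes were lower in hair cells than in mCherry+ cells. Of 60 connective tissue genes 47 were lower (78.3%), 0 higher and 13 not called, with a median of -3.35, and their mean level was 4.44 to 4.47 in hair cells, against 7.63 to 7.83 in mCherry+ cells. Double-positive arrays had 6.06 to 6.93 and NF arrays 7.15 to 7.71 for the same list. The mCherry+ and NF ranges overlap through NF replicate 4 (7.71) alone, the other NF arrays reaching 7.48 at most. The transcription factor gene prrx1a, a marker of limb and fin mesenchyme, measured 4.46 and 3.88 in hair cells and 11.19, 11.18, 11.02, 11.19 and 11.03 in mCherry+ cells. Its duplicate prrx1b, twist1a and the growth factor receptor gene pdgfra, all used as markers of mesenchyme, were lower in hair cells, at -6.55 ± 0.25, -5.86 ± 0.36 and -6.90 ± 0.48. The fibrillar collagen gene col1a1a measured 8.23 and 7.99 in hair cells and 12.87, 12.78, 12.67, 12.78 and 12.71 in mCherry+ cells, and the small proteoglycan gene dcn 5.01 and 5.20 in hair cells and 11.16, 11.11, 11.06, 11.15 and 11.22 in mCherry+ cells. For each of these genes the mCherry+ arrays lay within a narrow range and far above both hair arrays. The double-positive arrays had 8.47 to 10.02 for prrx1a, a difference from mCherry+ cells of -1.53 ± 0.25 (adjusted p = 0.000212), and the NF arrays had 9.26 to 9.83. Whether mesenchymal cells in the mCherry+ sort carry these differences was not tested.

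The 12 genes with the largest negative differences were hpdb (-7.98), tgfbi (-7.43), egfem1 (-7.39), ttc36 (-7.38), sypl1 (-7.17), tnmd (-7.11), hoxa13b (-7.10), kazald3 (-7.03), hapln1a (-7.03), prrx1a (-6.96), hapln1b (-6.94) and pdgfra (-6.90). The gene hpdb encodes a dioxygenase of tyrosine breakdown and measured 3.76 and 3.33 in hair cells and 11.42, 11.45, 11.39, 11.59 and 11.76 in mCherry+ cells. Several of the others encode matrix proteins, among them the transforming-growth-factor-induced protein tgfbi, the tendon protein tenomodulin (tnmd) and the hyaluronan link proteins hapln1a and hapln1b. The posterior homeobox gene hoxa13b, which patterns the distal fin, measured 2.91 and 3.08 in hair cells and 10.09, 10.16, 9.67, 10.23 and 10.32 in mCherry+ cells. The mCherry+ arrays of all 12 genes had the highest mean of the 4 populations, with the double-positive arrays at 8.23 to 10.33 for hpdb and 7.19 to 8.75 for hoxa13b.

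The support and mantle list of the neuromast had 8 of 43 members higher in GFP+ hair cells than in mCherry+ cells (18.6%), 12 lower (27.9%) and 23 not called. Its median was -0.19, and the shares of all genes were 17.6% and 18.0%. The mean level of the list was 6.02 to 6.12 in hair cells and 6.50 to 6.75 in mCherry+ cells. These ranges do not overlap, so the mean was lower in hair cells, while most members were not called. Without hair replicate 1, 3 members were higher. Its members TSPAN1, anos1a and fat1b were lower in hair cells. For TSPAN1, a tetraspanin, the values were 2.51 and 2.93 in hair cells and 6.20, 6.37, 4.37, 6.90 and 6.82 in mCherry+ cells, a difference of -3.41 ± 0.58 with replicate 3 the lowest mCherry+ array. For anos1a, which encodes the matrix protein anosmin, they were 4.76 and 4.34 in hair cells and 8.84, 8.68, 8.83, 7.79 and 9.17 in mCherry+ cells, and for the cadherin gene fat1b 4.00 and 4.08 in hair cells and 7.75, 7.93, 7.12, 6.98 and 8.05 in mCherry+ cells. In all 3 genes the groups were apart. The apelin receptor gene aplnra measured 3.77 and 1.58 in hair cells and 8.75, 8.56, 9.32, 9.32 and 10.79 in mCherry+ cells, with the hair arrays far apart from each other but below all mCherry+ arrays. The progenitor factor gene sox2 measured 7.70 and 7.54 in hair cells and 7.75, 7.67, 7.98, 7.75 and 7.76 in mCherry+ cells, a difference of -0.16 ± 0.21 (adjusted p = 0.602), and hmx2 and hmx3a, which encode homeodomain factors expressed in the inner ear and neuromasts, differed by 0.20 ± 0.34 and 0.15 ± 0.34. The claudin gene cldnb, which marks the lateral line, was not called either (9.48 and 9.55 in hair cells and 9.05, 8.97, 8.87, 8.54 and 8.66 in mCherry+ cells). Neither was stm, an otolith matrix gene, at 10.37 and 10.26 in hair cells and 9.55, 9.63, 9.74, 9.55 and 11.06 in mCherry+ cells.

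These genes had other values when double-positive cells were set beside the same arrays. The hair versus double-positive comparison called 6815 genes (17.2% higher, 18.2% lower), and the double-positive versus mCherry+ comparison 4880 genes (12.6% higher, 12.8% lower). The count of that last comparison was 2552 when a block for 3 sets of arrays was added. These comparisons share arrays with the hair versus mCherry+ one, so their values are given side by side and not counted against each other. In the list of 43 support and mantle genes, hair cells exceeded double-positive cells in 5 and fell below them in 27, and double-positive cells exceeded mCherry+ cells in 26 and fell below them in 6. The level of sox2 in double-positive cells was 9.72 to 9.89, which gave hair minus double-positive a value of -2.19 ± 0.22 and double-positive minus mCherry+ one of 2.03 ± 0.17. For TSPAN1 the double-positive level was 9.03 to 10.39, with hair minus double-positive at -6.97 ± 0.60 and double-positive minus mCherry+ at 3.56 ± 0.47. The same 2 values were -6.39 and 2.28 for anos1a and -5.88 and 2.35 for fat1b. The gene aplnra ran the other way between the mantle sorts, with 5.04 to 6.87 in double-positive cells and a difference of -3.29 ± 0.56 from mCherry+ cells. Of the hair cell lists set against double-positive cells, the bundle list had 41 of 49 members higher (median 3.30), the cilium list 111 of 126 (median 2.54) and the transcription factor list 8 of 23 (median 0.06), the last against 14 of 23 (median 1.37) when set against mCherry+ cells. The gene pou4f3 was 5.70 higher than in double-positive cells and otofb 6.42 higher.

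**Figure D4:**
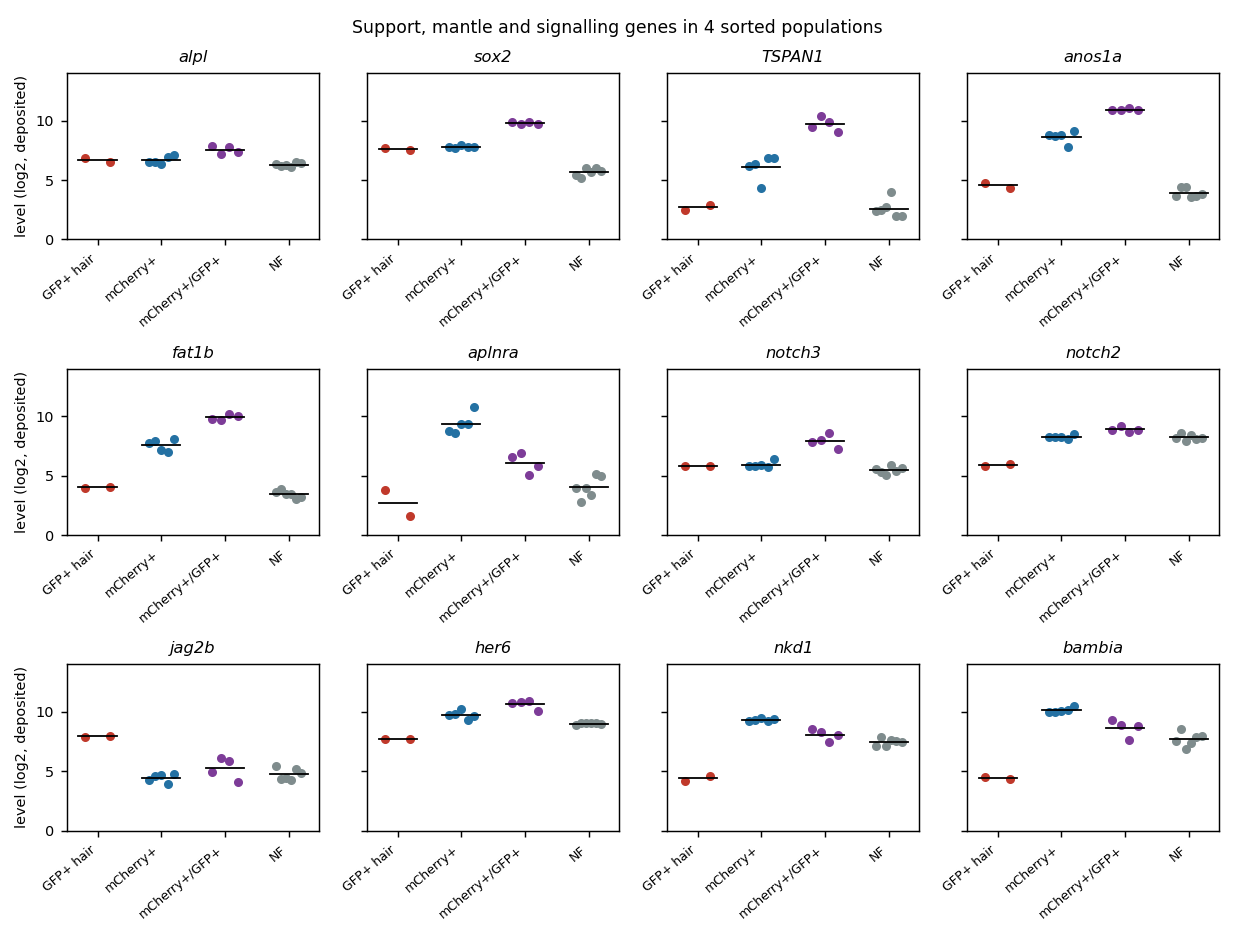
Levels (vertical axis, log2) of 12 support, mantle and signalling genes in each array of the hair, mCherry+, double-positive (mCherry+/GFP+) and NF sorts, with a bar at the group mean. The alpl and sox2 points of hair and mCherry+ arrays are level, those of TSPAN1, anos1a and fat1b step up from hair to mCherry+ to double-positive cells, and jag2b is highest in hair cells.

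In the Notch pathway, which holds back hair cell fate in the neighbours of a hair cell, 10 of 43 genes were higher (23.3%) and 10 lower (23.3%). The median was -0.02 and the shares of all genes were 17.6% and 18.0%, so against mCherry+ cells the list was near the background. Against double-positive cells, 7 members were higher in hair cells and 15 lower (median -0.31). Double-positive cells exceeded mCherry+ cells in 16 and fell below them in 2. All genes were at 17.2% and 18.2% in the former comparison and at 12.6% and 12.8% in the latter. Several ligand genes were higher in hair cells than in mCherry+ cells. The level of jag2b was 7.89 and 7.99 in hair cells and 4.23, 4.58, 4.71, 3.88 and 4.76 in mCherry+ cells, dll4, dlb and jag2a were higher by 3.1 ± 0.23, 2.57 ± 0.39 and 2.52 ± 0.31, and dla and dld by 0.99 and 0.61. No call was made for dlc, jag1a and jag1b, at 0.03, 0.03 and -1.16. Several of the genes that respond to the pathway were lower. The hairy-related repressor gene her6 measured 7.74 and 7.72 in hair cells and 9.76, 9.82, 10.26, 9.29 and 9.62 in mCherry+ cells, her15.2 and her12 were lower, at -2.37 ± 0.35 and -2.37 ± 0.42, and her4.1 at -1.50 ± 0.52, and her9 was not called (0.48 ± 0.55). Of the receptor genes, notch2 was lower, at -2.35 ± 0.19, while notch1a and notch3 were not called, at -0.16 ± 0.30 and -0.11 ± 0.28. Without hair replicate 1 the list had 6 higher members and without hair replicate 2 it had 5 lower ones. The call of dla was lost without either hair array or without mCherry+ replicate 4 (adjusted p = 0.258, 0.0522 and 0.0558), that of dld without hair replicate 1 (adjusted p = 0.12), and that of her4.1 without either hair array (adjusted p = 0.155 and 0.136) or without mCherry+ replicate 1 or 2 (adjusted p = 0.0639 and 0.061). With the block for 3 sets of arrays all 3 lost the call (adjusted p = 0.0748 for dla, 0.116 for dld and 0.065 for her4.1). The Notch inhibitor gene numb was higher by 1.63 ± 0.29.

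The Wnt pathway had 3 of 79 genes higher, 44 lower (55.7%) and 32 not called, with a median of -0.99. The ligand genes wnt5b and wnt11 measured 3.48 and 3.68 and 4.64 and 4.48 in hair cells and, in mCherry+ cells, 7.49 to 8.04 and 8.83 to 9.22. Of the receptors, fzd9b was lower, at -4.92 ± 0.48. Genes that Wnt signals induce as feedback inhibitors were lower too, with nkd1 at 4.19 and 4.59 in hair cells and 9.19, 9.27, 9.45, 9.20 and 9.41 in mCherry+ cells, notum1b at -5.15 ± 0.31 and axin2 at -1.94 ± 0.21. The nuclear effector lef1 measured 6.90 and 6.75 in hair cells and 9.72, 9.70, 9.64, 9.87 and 10.04 in mCherry+ cells. The 3 higher genes were the inhibitor dkk2 (2.45 ± 0.61), the transcription factor sp5a (1.34) and the receptor fzd5 (0.82), whose call was lost without hair replicate 2 (adjusted p = 0.124) and with the block for 3 sets of arrays (adjusted p = 0.0515).

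The Bmp and Tgf-beta pathway had 3 of 66 genes higher, 41 lower (62.1%) and 22 not called (median -1.14), and the Fgf pathway 6 of 53 higher, 22 lower (41.5%) and 25 not called (median -0.49). The Bmp decoy receptor gene bambia measured 4.51 and 4.34 in hair cells and 10.02, 9.98, 10.07, 10.14 and 10.47 in mCherry+ cells, and the homeobox gene msx1b, a Bmp target, was lower, at -4.97 ± 0.37. The procollagen protease gene bmp1a, which bears the Bmp name but cleaves matrix, was lower, at -5.75 ± 0.42. Among Fgf receptors, fgfr2 and fgfr4 were lower, at -4.13 ± 0.22 and -5.30 ± 0.29 and fgfr3 higher by 1.16 ± 0.31. The ligand genes that went the other way were fgf10b, at 7.99 and 8.06 in hair cells and 4.57, 4.04, 3.69, 4.16 and 5.16 in mCherry+ cells, and gdf10a, at 7.48 and 7.76 in hair cells and 3.68, 3.79, 2.98, 4.50 and 3.28 in mCherry+ cells. Without hair replicate 1 the Fgf list had 1 higher member and fgfr3 was no longer called (adjusted p = 0.0799), and without hair replicate 2 the Bmp and Tgf-beta list had 1. The Fgf target etv4 was at 8.25 and 7.98 in hair cells and 8.59, 8.36, 8.14, 8.65 and 8.62 in mCherry+ cells and was not called. Some genes of these pathways were also lower in double-positive than in mCherry+ cells. Among them were bambia (-1.47 ± 0.31), nkd1 (-1.23 ± 0.20) and fgfr4 (-1.94 ± 0.23), as double-positive minus mCherry+. By list, the members higher and lower in that comparison were 26 and 17 of 79 for Wnt and 7 and 14 of 53 for Fgf. Of all genes, 12.6% were higher and 12.8% lower there. The counts were 2 and 29 of 66 for Bmp and Tgf-beta, and 3 and 37 of the 60 connective tissue genes. Against double-positive cells, hair cells were lower in 47 Wnt, 23 Fgf and 31 Bmp and Tgf-beta genes. They were higher in 3, 8 and 5, with all genes at 17.2% higher and 18.2% lower. The higher Fgf members were near the share of all genes in both comparisons. The part of connective tissue cells in the differences of these pathways was not tested.

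Of 87 axon guidance genes 10 were higher and 45 lower (51.7%), with sema3e at -6.32 ± 0.53, slit1a at -5.31 ± 0.38 and robo3, a receptor of slit ligands, at 5.74 and 5.59 in hair cells and 10.86, 10.85, 10.54, 10.74 and 11.00 in mCherry+ cells. The higher ones include sema7a, a membrane-anchored semaphorin, at 8.59 and 8.46 in hair cells and 3.02, 2.80, 3.04, 3.36 and 3.14 in mCherry+ cells, and the neurotrophin gene bdnf, whose protein sustains sensory neurons, at 7.24 and 7.28 in hair cells and 3.54, 3.87, 3.63, 3.91 and 3.56 in mCherry+ cells. Both hair arrays were well above every mCherry+ array for these 2 genes, by 5.45 ± 0.18 and 3.56 ± 0.18. Of 49 matrix proteases and inhibitors 4 were higher and 29 lower (59.2%), with the gelatinase gene mmp2 at -6.13 ± 0.29. Of 63 adhesion genes 5 were higher and 32 lower (50.8%), with the integrin gene itgb3b at -6.54 ± 0.44. In this list the cadherin gene cdh2 was not called (-0.19 ± 0.23) and ncam1b was higher by 3.34 ± 0.39.

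Of 91 genes of the cell cycle and DNA replication, 1 was higher, 41 lower (45.1%) and 49 not called, with a median of -0.72. The replication clamp gene pcna measured 7.21 and 7.27 in hair cells and 8.2, 8.54, 8.42, 8.62 and 9.21 in mCherry+ cells, the helicase gene mcm4 was lower, at -1.36 ± 0.27, and the cyclin gene ccnd1 was at -2.32 ± 0.22. Genes of mitosis included plk1 (-2.21 ± 0.39) and aurkb (-2.16 ± 0.50). The gene of the cell cycle inhibitor p27, cdkn1bb, at 10.40 and 10.50 in hair cells and a difference of 0.33 ± 0.16 from mCherry+ cells, was not called, and the only higher member was rbl2, a pocket protein of the retinoblastoma family (0.75 ± 0.20), whose call was lost without hair replicate 1 (adjusted p = 0.0897) and with the block for 3 sets of arrays (adjusted p = 0.0681). The count of lower members was 26 with the block for 3 sets of arrays, where the lower calls over all genes fell from 3469 to 2632. It also fell when either hair array was left out, as did the lower calls over all genes.

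Of 68 cytosolic ribosomal protein genes 54 were lower in hair cells (79.4%), 1 higher and 13 not called, by a median of -0.63, among them rps6 at 10.40 and 10.41 in hair cells and 11.32, 11.31, 11.32, 11.24 and 11.60 in mCherry+ cells. The count of 54 was 35 without hair replicate 1, 32 without hair replicate 2 and 20 after quantile normalization, so it rests in part on the scaling. Ribosome biogenesis genes had 0 of 84 higher and 4 lower, 0 and 1 without hair replicates 1 and 2 and 2 without mCherry+ replicate 3 or 5. Of 81 genes of the mitochondrial respiratory chain 30 were higher (37.0%), 0 lower and 51 not called, with a median of 0.53, and 14 were higher without either hair array. The complex I gene ndufv1 measured 8.51 and 8.43 in hair cells and 7.27, 7.24, 7.02, 7.05 and 6.89 in mCherry+ cells, and ndufa4b was higher by 2.45 ± 0.26. The redox enzyme genes gpx1b (4.86 ± 0.30) and nqo1 (2.97 ± 0.36) were higher too, but they are not in the respiratory chain list. In the stress response list, whose differences ran from -6.26 to 4.86, 16 of 78 genes were higher and 17 lower (median -0.11). The immediate early genes fosab and egr1, which dissociation is known to induce, were not called (-0.14 for egr1), with fosab at 12.02 and 12.07 in hair cells and 12.06, 12.04, 11.96, 11.64 and 11.76 in mCherry+ cells.

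**Figure D5:**
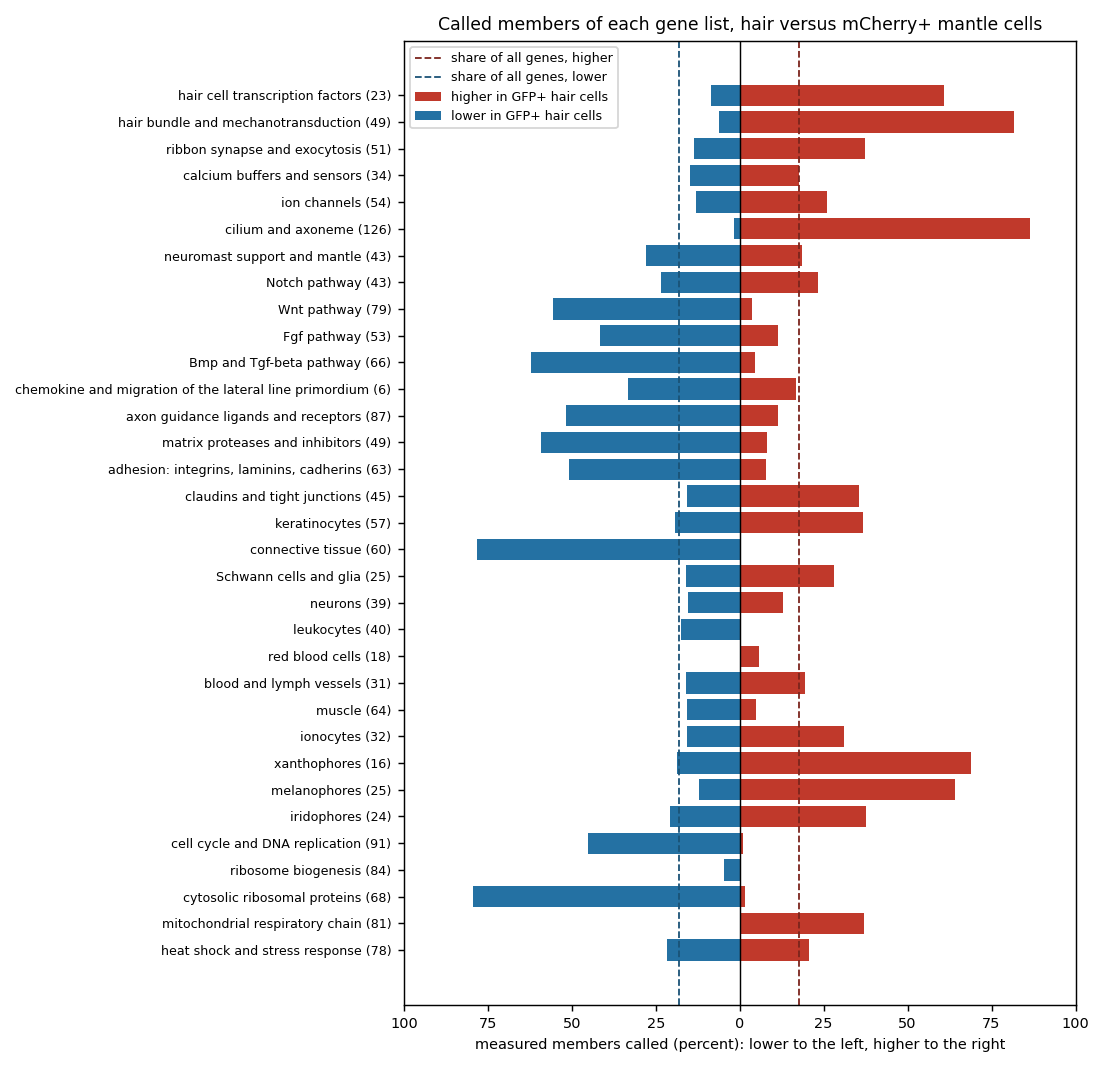
Share of the measured members (horizontal axis, percent) called higher (right) or lower (left) in GFP+ hair cells than in mCherry+ mantle cells for 33 gene lists, with the number measured in brackets and dashed lines at the share of all genes, 17.6% higher and 18.0% lower. The bars of the cilium (86.5%) and the hair bundle (81.6%) reach farthest to the right, and those of ribosomal proteins (79.4%) and connective tissue (78.3%) farthest to the left.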

How the data were processed

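The values are the authors' deposited array levels on a log2 scale, made with RMA in Partek 6.6 per the submitters' processing notes. The notes name no log base; base 2 is an inference from RMA's usual output and the spread of values from -1.29 to 15.05. Signal over background was not analysed here. Of 75212 probe sets, 20806 are listed with 1 gene symbol, 855 with several and 53551 without an entry. They gave 19260 genes, and the probe set with the highest mean over all arrays was taken for the 1365 genes with several. Symbols come from the platform annotation, with 20323 Entrez IDs found in RefSeq and 1 symbol updated. RNA was amplified from 1 ng, and RNA integrity was above 8, per the labels. The number of arrays limits the precision.

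For each gene, limma 3.58.1 (R 4.3.3, the data.table package, version 1.17.8; lmFit, then eBayes with default settings) was fitted to the 17 untreated arrays, with Benjamini-Hochberg adjustment over all genes. The labels do not name clutches or sort days, so a p-value here reflects only how far deposited samples of a group lie apart, after the authors pooled sorts (hair and mCherry+/GFP+ cells) and discarded samples that did not cluster. The 2 hair arrays differed from each other by an SD of 0.308 over genes, against 0.307 to 0.531 between pairs of mCherry+ arrays. They were thus about as alike as the most alike mCherry+ pair. They were counted as separate because they are labelled as 2 replicates, and the SD cannot show whether they are independent. The test was tried on simulated data in which 100 genes were changed by a log2 of 1 and 100 by a log2 of 2. It recovered 46% and 94% of them and called 9 unchanged genes. The simulated noise was independent between arrays and far fewer genes were changed than the 6864 called here, so this does not show how the test behaves on the real arrays. Summaries were made with Python 3.11.15, pandas 2.3.3 and numpy 2.4.6, and figures with matplotlib 3.10.9.

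The comparison, the 33 gene lists and the naming rule were chosen with earlier results of these data known. The rule named the 12 largest differences in each direction among genes called on the deposited, equal-median and quantile scales with arrays that do not overlap and no placeholder symbol. From each list it named up to 5 called higher and 5 called lower, those with the largest differences, and up to 3 not called, those with the highest mean level. The called genes it named from a list are thus the extremes of that list. Added to these were pou4f3, atoh1a, alpl, myo6b, sox2, her4.1, fat1b, mcm4, gch2 and prrx1a. The following 42 genes were named after their values were seen: barhl1b, insm1a, isl1a, eya1, myo7aa, cdh23, pcdh15a, tmc2a, tmc1, adgrv1, ush1c, ptprq, loxhd1b, cacna1db, pcloa, rfx2, rfx3, rfx4, ift88, ift172, csf1ra, xdh, mitfa, tyr, dct, tyrp1b, twist1a, col1a1a, dcn, TSPAN1, hmx2, hmx3a, dla, dld, dlc, jag1a, jag1b, notch1a, notch3, axin2, lef1 and pcna.

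Alternatives were array medians set equal, quantile normalization, a replicate block, a block for 3 sets of arrays (mCherry+ replicates 1 and 2 with NF replicates 5 and 6, mCherry+ replicates 3 and 4 with NF replicate 1, and all other arrays) with and without equal medians, only the groups compared, all 52 arrays, weights per array, a trended and robust eBayes, averaging a gene's probe sets, testing no dim genes, a stricter adjusted p of 0.01, and leaving out each array. The 3 sets rest on deviations in these same values and not on the labels. The mCherry+ and NF arrays put in 1 set deviate from their group means in opposite directions, with correlations of -0.511 to -0.307. A block takes out only a shift that the arrays of a set share, so it cannot take out such deviations. Of the mCherry+ arrays, only replicate 5 shares a set with the hair arrays. Calls lost under this block show that they depend on the model.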

Additional observations from a re-analysis of the deposited data

Results flagged for a closer look

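In the 5 mCherry+ arrays, 229 values (the genes named here and the mean levels of the lists) were searched for 1 array that stood apart, with its gap to the nearest of the others above 0.71 of the whole range, and 12 were found. Chance gives about 1 in 20, so this number is near what chance gives. Groups of 2 hair arrays cannot be searched in this way.

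Replicate 3 was apart in 5 of them. It had the lowest level of TSPAN1, 4.37 against 6.20 to 6.90 in the other arrays, and of tnmd, 10.69 against 10.95 to 11.05. It had the highest level of hapln1a (10.73, others up to 10.28), sox2 (7.98, others up to 7.76) and foxi3b (6.59, others up to 5.71). Replicate 5 was apart in 4, with the highest level of stm (11.06, others up to 9.74), serpinh1b (10.17, others up to 9.51) and rps6 (11.60, others up to 11.32) and the lowest of rfx3 (3.78, others from 4.4). Replicate 4 had the highest level of csf1ra (4.50, others up to 4.1) and the lowest mean level of the Notch pathway list (5.53, others from 5.60). Replicate 1 had the lowest level of myo7aa (3.89, others from 4.27). The calls of these genes were the same without any 1 mCherry+ array.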

How the results depend on the processing

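The count of genes that differed between GFP+ hair cells and mCherry+ mantle cells, 6864, moved by more than 1.5 times under 1 of 19 other settings, to 4434 without dim genes, a setting that tests fewer genes and keeps 38 of the higher cilium genes and 12 of the higher bundle genes. It was 5855 with the replicate block and 4919 to 6583 when single arrays were left out. Setting the array medians equal changed the share of higher genes to 45.4%, against 49.5%. The hair versus double-positive count of 6815 became 4267 without dim genes, 38.4% of them higher against 48.7%, and ranged from 4612 to 6787 when single arrays were left out. The double-positive versus mCherry+ count of 4880 became 2552 with the block for 3 sets of arrays, 2631 with that block and equal medians, and 3026 at an adjusted p below 0.01, and ranged from 4145 to 4882 without single arrays. The cause of these shifts was not tested. Same-numbered hair and mCherry+ arrays correlated by 0.018 and 0.009 in their deviations. With 2 hair arrays the deviations are mirror images of each other, so these values cannot show whether the replicate numbers pair the samples. Of 166 called genes named here, 155 kept direction and call in each of the 19 settings that tested them, 11 lost the call in 1 or more (4 with the replicate block, at adjusted p of 0.0545 to 0.0834, and 6 with the block for 3 sets of arrays, at 0.0515 to 0.116), and 0 reversed. Of the genes not called, 8 gained a call in 1 or more settings, cdkn1bb and fosab among them after quantile normalization (0.66 and 0.45). With 2 hair arrays, a gene that was not called is not shown to be equal in both sorts. Leaving out a hair array, or adding a block, lowered the calls over all genes as well. The smaller counts of called list members in those settings are to be read beside that general fall. Signal over background was not analysed here.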

Other observations

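Of 45 claudin and tight junction genes 16 were higher in hair cells (35.6%), 7 lower (15.6%) and 22 not called. The shares of all genes were 17.6% and 18.0%, so the lower share was near the background. Both counts fell when either hair array was left out, as did the calls over all genes. Against double-positive cells, 4 members of the list were higher in hair cells and 13 lower (median -0.21), with all genes at 17.2% and 18.2%. Double-positive cells exceeded mCherry+ cells in 19 and fell below them in 2, with all genes at 12.6% and 12.8%. The claudin gene cldne measured 8.33 and 8.23 in hair cells and 4.36, 3.97, 4.24, 4.33 and 5.16 in mCherry+ cells, and the double-positive arrays had 5.78 to 7.08. The paracellular junction genes oclnb and cgnb were higher by 2.77 ± 0.44 and 2.50 ± 0.29, while for each the difference between hair cells and double-positive cells was not called (0.65 and 0.20). The claudin gene cldn19 went the other way, with 3.92 and 3.47 in hair cells and 7.70, 7.24, 7.53, 7.89 and 9.20 in mCherry+ cells.

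Of 39 neuron genes 5 were higher and 6 lower, and of 25 glial genes 7 were higher (28.0%) and 4 lower, against 17.6% and 18.0% of all genes. The synuclein gene sncb measured 8.70 and 8.86 in hair cells and 3.88, 3.67, 3.81, 5.08 and 4.93 in mCherry+ cells, and the pan-neuronal RNA-binding gene elavl3 was not called (2.99 and 2.61 in hair cells and 3.38, 3.52, 5.17, 5.01 and 4.31 in mCherry+ cells). Without hair replicate 1 the lower neuron genes numbered 1 and without hair replicate 2 they numbered 2. The neuregulin receptor gene erbb3a measured 7.99 and 7.97 in hair cells and 3.03, 3.31, 4.1, 3.30 and 4.18 in mCherry+ cells, and sox10, a factor of the neural crest, was higher by 1.3 ± 0.24. Of 32 ionocyte genes 10 were higher and 5 lower (2 lower without hair replicate 1 and likewise without hair replicate 2), with the ammonia transporter gene rhcga at 8.34 and 8.51 in hair cells and 3.93, 3.81, 3.53, 4.29 and 4.64 in mCherry+ cells, and the ionocyte factor gene foxi3b at 3.39 and 3.92 in hair cells and 5.71, 5.49, 6.59, 5.42 and 5.60 in mCherry+ cells, a call lost without hair replicate 1 (adjusted p = 0.0586). Of 64 muscle genes 3 were higher and 10 lower (3 and 5 lower without hair replicates 1 and 2), and of 31 vessel genes 6 were higher and 5 lower, with 3 higher without hair replicate 1 and 3 lower without either hair array or without mCherry+ replicate 5.

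Of the 6 genes of chemokine signalling in the migrating lateral line primordium, cxcl12b was higher (1.33 ± 0.38) and cxcl12a and the scavenger receptor gene ackr3b lower (-1.13 ± 0.28 and -1.60 ± 0.20). The receptor gene cxcr4b was not called, at 3.93 and 3.51 in hair cells and 4.49, 4.16, 5.17, 4.24 and 3.76 in mCherry+ cells, and had 5.16 to 7.71 in double-positive cells. The calls of cxcl12a and cxcl12b were lost without hair replicate 1 (adjusted p = 0.0807 and 0.128) and with all 52 arrays (adjusted p = 0.0601 and 0.0571), and that of cxcl12b also with the block for 3 sets of arrays (adjusted p = 0.0584). Of 78 stress response genes 16 were higher (20.5%) and 17 lower (21.8%), near the background. The collagen chaperone gene serpinh1b, which is listed there and among the matrix proteins, measured 3.14 and 3.51 in hair cells and 9.35, 9.38, 9.51, 9.5 and 10.17 in mCherry+ cells, and the DNA damage gene gadd45ab 4.53 and 4.27 in hair cells and 7.87, 7.86, 8.03, 7.70 and 7.40 in mCherry+ cells.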
